A study of Danio rerio with 13 samples.

Results

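The mitochondrial small ribosomal RNA region was taken as positions 951 to 2043 of the plus strand of the zebrafish mitochondrial genome (assembly Zv9, 1-based), a span of 1093 nt. By the rule that chose it, the span holds the 12S ribosomal RNA and its flanking tRNAs. Every site on that strand and span in the 4 uniquely mapped tables was a member, whatever its count. This gave 327 crosslinked nucleotides of 415798 in all 4 tables. In a gene table of another assembly, GRCz12tu, used only for names and order, the mitochondrial genes run trnF (tRNA for phenylalanine), mt-rnr1 (12S rRNA), trnV (tRNA for valine) and mt-rnr2 (16S rRNA). Gene boundaries on Zv9 were not used here, so positions are given along the span and are not assigned to single genes. Values of the region are those of the whole span, tRNAs included, and not of the 12S rRNA alone. Which of these genes holds a given block was not determined.

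The 12S rRNA is the RNA core of the small subunit of the mitochondrial ribosome, which translates the few proteins encoded by the mitochondrial genome. It is cut from a long precursor transcript in which tRNAs separate the ribosomal RNAs and most of the coding genes, and removal of the tRNAs frees their ends. The egg supplies the early embryo with its mitochondria. hnRNP A1 is an abundant, mainly nuclear RNA-binding protein, best known for its effect on splice site choice.

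iCLIP maps where a protein touches RNA: UV light (254 nm) links protein to RNA in the embryo, the complex is pulled down, and the cDNA end marks the linked nucleotide. Wild-type AB embryos were used in all groups. The groups were hnRNP A1 pull-down at ZGA, during zygotic genome activation (1000 cells, n = 4 samples), hnRNP A1 pull-down at preZGA, before it (32 cells, n = 3), IgG pull-down at ZGA (n = 3) and IgG pull-down at preZGA (n = 3). Each group was deposited as 1 summed table of significant sites, which leaves no replicate spread to test against. No difference was therefore tested. Ranges in parentheses are exact 95% intervals from the cDNA or site counts, and counting error is all that they cover. The tables of uniquely mapped cDNAs held 480927 cDNAs for hnRNP A1 at ZGA, 583691 for hnRNP A1 at preZGA, 20262 for IgG at ZGA and 9606 for IgG at preZGA. These totals count only sites that passed the submitters' filter, and a nucleotide or stretch without an entry is called not listed, which does not mean free of crosslinks.

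hnRNP A1 crosslinks in the region were few in number and high in count at both stages. The region held 10454 hnRNP A1 cDNAs over 309 sites at ZGA and 6967 over 280 sites at preZGA. This was 2.17% of the table at ZGA (2.13 to 2.22) and 1.19% at preZGA (1.17 to 1.22), from 0.154% and 0.0974% of the listed sites. The median site held 14 cDNAs at ZGA and 11 at preZGA, whereas the median site of each whole hnRNP A1 table held 1. Sites of a single cDNA made up 4.53% of the region's sites at ZGA and 6.07% at preZGA, against 65.1% and 65.4% over the whole tables. High counts per site were not particular to the region. The rest of the mitochondrial plus strand held 17633 hnRNP A1 cDNAs over 676 sites at ZGA and 17621 over 631 at preZGA. No minus-strand site was listed in the span in any of the 4 tables.

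The sites fell into a few separate blocks with long unlisted stretches between them. Blocks were taken as the runs between stretches of at least 20 positions without an hnRNP A1 site at either stage. Block 1 covered positions 956 to 991 at the trnF end of the span, block 2 positions 1228 to 1317, and block 3 positions 1711 to 1955. Block 4, at 1989 to 1995, and block 5, at 2040 to 2042, were short and each listed at 1 stage alone. The blocks took up 381 of the 1093 positions, or 34.9%, and 85.8% of those positions carried a site. The longest unlisted stretch ran over 393 nt, from 1318 to 1710, and the next over 236 nt, from 992 to 1227. No IgG site lay in any stretch outside the blocks.

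**Figure D1:**
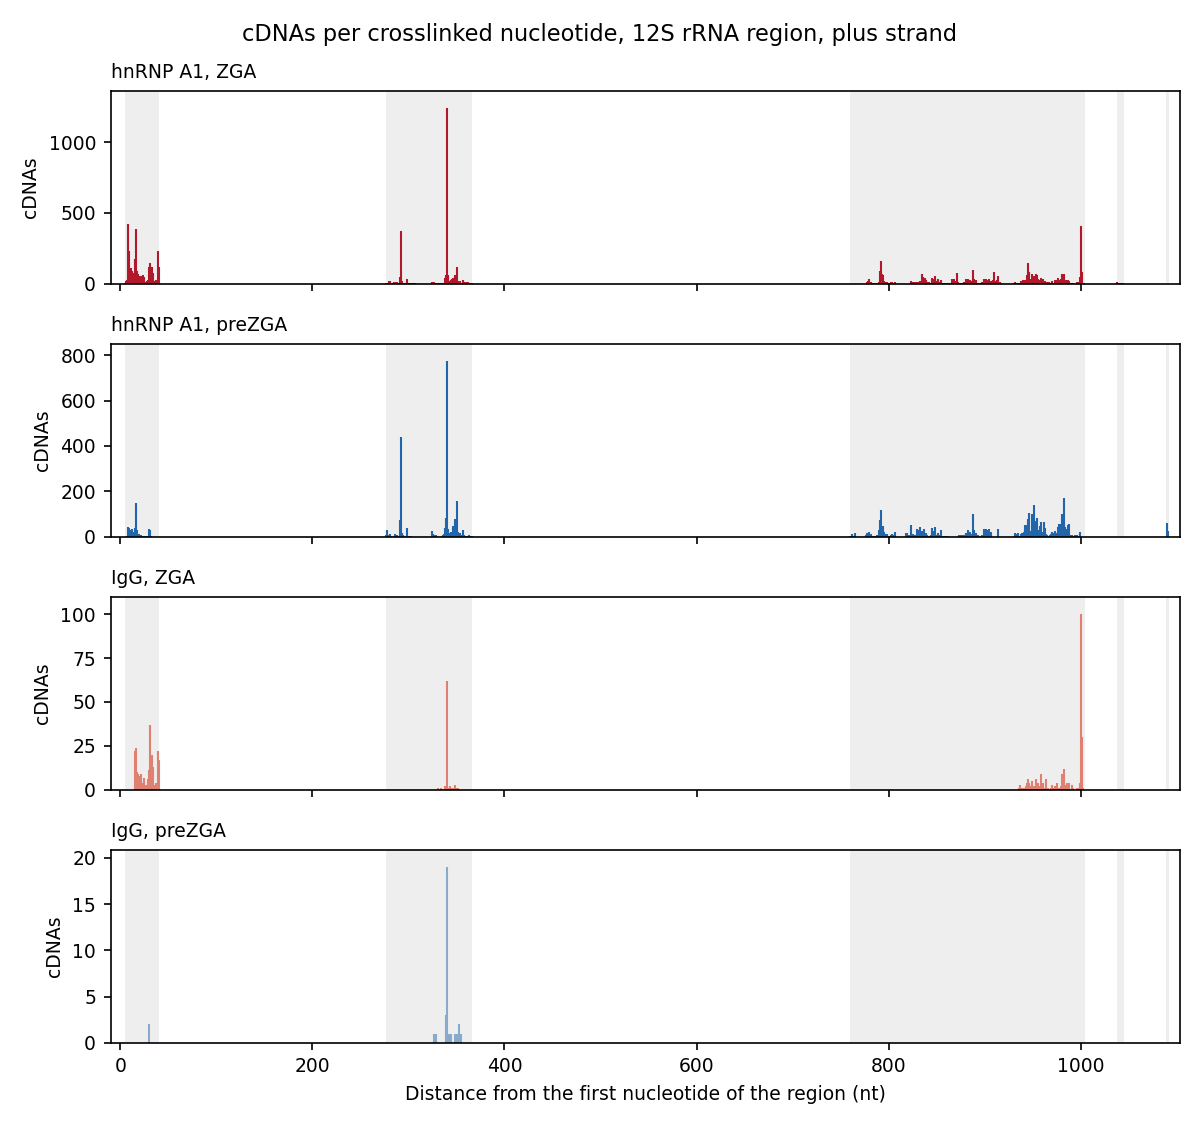
Uniquely mapped cDNAs per nucleotide (vertical axis, with its own scale in each panel) against distance from the first nucleotide of the region (horizontal axis, nt) in the 4 pooled tables. Grey shading marks the 5 blocks. Both hnRNP A1 panels peak at 1240 (ZGA) and 774 (preZGA) cDNAs on the same nucleotide, and the stretches between the blocks are empty in all 4 panels.

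Block 3 held the most hnRNP A1 cDNAs at each stage. It had 4675 cDNAs over 195 sites at ZGA and 4088 over 185 at preZGA, or 44.7% and 58.7% of the region. Block 2 had 2629 over 71 sites at ZGA and 2281 over 67 at preZGA, or 25.1% and 32.7%. Block 1 had 3127 cDNAs over 36 sites at ZGA and 508 over 25 at preZGA, or 29.9% and 7.29%. By cDNAs, block 1 thus stood above block 2 at ZGA and below it at preZGA. Block 4 had 23 cDNAs at ZGA alone and block 5 had 90 at preZGA alone.

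A small number of nucleotides carried a large part of the signal. The 10 strongest nucleotides held 36.0% of the region's hnRNP A1 cDNAs at ZGA (35.1 to 37.0) and 32.4% at preZGA (31.3 to 33.5). The strongest 25 nucleotides at ZGA and 29 at preZGA were enough to reach 50% of the cDNAs. Position 1291, in block 2, led at both stages with 1240 cDNAs at ZGA and 774 at preZGA, or 11.9% and 11.1% of the region. It ranked 7 among all nucleotides of the hnRNP A1 table at either stage. The count fell off within 1 nt: position 1290 held 63 cDNAs at ZGA and 84 at preZGA, and position 1292 held 59 and 36.

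The order of the strongest nucleotides below the leader differed between the stages. At ZGA, position 1291 was followed by 959 (420 cDNAs), 1951 (407), 967 (388), 1243 (371), 960 (230), 990 (228), 966 (175) and 1743 (160), with 982 and 1896 tied at 147. Of these 11, 959, 960, 966, 967, 982 and 990 lie in block 1. At preZGA it was followed by 1243 (441), 1933 (170), 1302 (157), 967 (148), 1902 (141), 1743 (117), 1897 (106), 1931 (102) and 1900 (100). Here only 967 lies in block 1, and 5 of the 10 lie between 1897 and 1933. The lists of 10 nucleotides, with 982 as the tenth at ZGA, shared 4: 967, 1243, 1291 and 1743. Positions 951 to 955 and 2043, at the outer ends of the span, had no site in any table.

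The region's share of hnRNP A1 cDNAs was higher at ZGA. The ratio of its share of the table, ZGA over preZGA, was 1.82 (1.77 to 1.88), and the cDNA numbers themselves differed 1.50-fold. Those numbers are sums over 4 samples at ZGA and 3 at preZGA and are not scaled for this. The mitochondrial minus strand had a higher share ratio, 5.52 (4.95 to 6.16), with 1837 cDNAs at ZGA and 404 at preZGA. The rest of the mitochondrial plus strand had 17633 cDNAs at ZGA and 17621 at preZGA, a share ratio of 1.21 (1.19 to 1.24). The region therefore made up 37.2% of plus-strand mitochondrial cDNAs at ZGA (36.7 to 37.8) and 28.3% at preZGA (27.8 to 28.9), an odds ratio of 1.50 (1.45 to 1.56) against the rest of that strand. IgG moved the same way and further, with 617 cDNAs at ZGA and 33 at preZGA, a share ratio of 8.86 (6.24 to 13.0). On the minus strand IgG had 301 cDNAs at ZGA and none listed at preZGA. The rest of the plus strand had an IgG share ratio of 2.83 (2.32 to 3.47). The odds ratio of the region against it was 3.13 for IgG (2.08 to 4.83), larger than that of hnRNP A1. The part of this background in the hnRNP A1 difference was not tested.

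Of the 3 blocks listed at both stages, block 1 had the highest share ratio. The ratio was 7.47 (6.80 to 8.22), against 1.40 (1.32 to 1.48) for block 2 and 1.39 (1.33 to 1.45) for block 3. Without block 1, a calculation added after its values were seen, the log2 share ratio of the region was 0.47 in place of 0.86. All 36 positions of block 1 carried a site at ZGA and 25 did at preZGA. Each of the 25 shared nucleotides held more cDNAs at ZGA. IgG cDNAs in block 1 came to 262 at ZGA and 2 at preZGA.

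The same hnRNP A1 cDNAs were then compared by single nucleotide. The counts for block 1 therefore restate its share ratio and are no separate evidence, and neighbouring nucleotides are not independent. Nucleotides whose hnRNP A1 cDNAs at ZGA and preZGA summed to 20 or more were compared by their share of the table, with a 2-fold difference or more as the mark. In the region 56 of 172 (32.6%) were higher at ZGA and 12 (6.98%) lower, beside 33.0% and 12% of all 3439 such nucleotides in the tables. The number higher was thus close to the background. Within the region, block 1 had 28 of 28 higher, block 2 had 5 of 31 higher and 2 lower, and block 3 had 23 of 111 higher and 8 lower. A nucleotide not listed at a stage was taken as having no cDNAs there, although its true count is unknown. This held for the region and for all nucleotides of the tables alike. In the region, the 17 without a listed preZGA site, all in blocks 1 and 3, were thus called higher. The 2 without a listed ZGA site, in block 5, were called lower. Outside block 1 the higher share was 19.4% (28 of 144). The rest of the mitochondrial plus strand had 101 of 362 higher (27.9%) and 71 lower (19.6%).

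**Figure D2:**
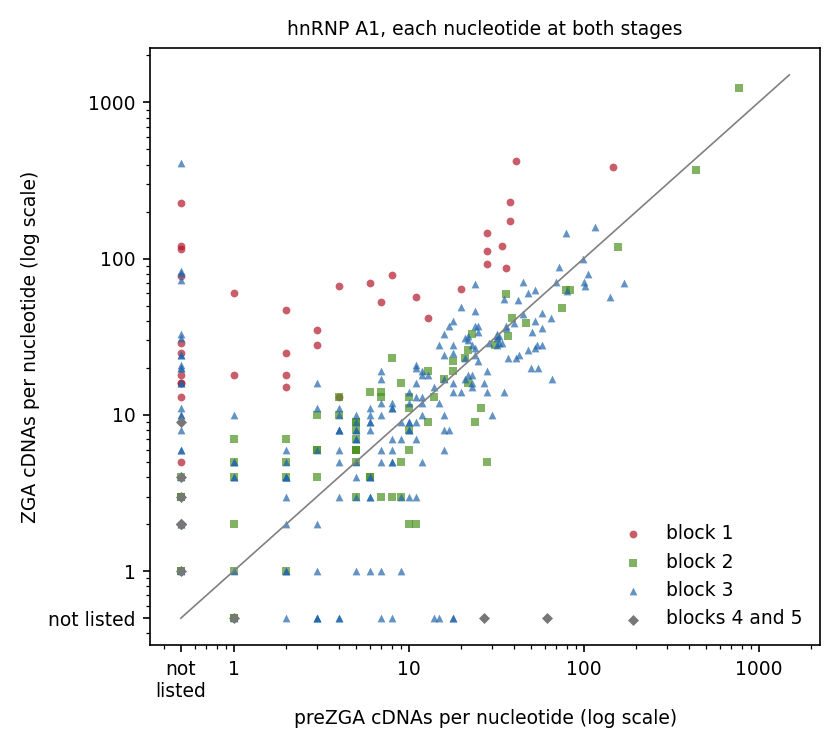
hnRNP A1 cDNAs of each nucleotide at ZGA (vertical axis, log scale) against preZGA (horizontal axis, log scale), by block; nucleotides not listed at a stage are drawn at the tick marked so, and the line marks equal counts. All block 1 points lie above the line, while those of blocks 2 and 3 fall on both sides of it.

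To place these differences within the blocks, the blocks were divided after their profiles were seen. Block 1 was divided at its first IgG site at ZGA and after its last preZGA site, giving 1a (956 to 965), 1b (966 to 983) and 1c (984 to 991). Block 2 was divided at its widest inner run without a site, of 17 nt, giving 2a (1228 to 1258) and 2b (1276 to 1317). Block 3 was divided in the same way as block 1, giving 3a (1711 to 1886), 3b (1887 to 1950) and 3c (1951 to 1955). By these definitions 1a and 3a hold no IgG site at ZGA, 1b and 3b start on one, and 1c and 3c hold no hnRNP A1 site at preZGA. The IgG percentages of the segments in blocks 1 and 3 thus depend on where the cuts were made.

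Block 1 began with a sharp step at position 959. At ZGA positions 958, 959 and 960 held 25, 420 and 230 hnRNP A1 cDNAs, against 2, 41 and 38 at preZGA. Segment 1a as a whole had 1082 cDNAs at ZGA and 187 at preZGA, a share ratio of 7.02 (6.01 to 8.25).

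Segment 1b, which starts on an IgG site at ZGA by definition, held a second peak. Position 967 held 388 hnRNP A1 cDNAs at ZGA, against 148 at preZGA, beside 24 IgG cDNAs at ZGA and none listed at preZGA. The segment had 1431 hnRNP A1 cDNAs at ZGA, against 321 at preZGA, a share ratio of 5.41 (4.79 to 6.13). IgG had 179 cDNAs there at ZGA, 12.5% of the hnRNP A1 number (10.6 to 14.6), and 2 at preZGA, both on position 981.

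The listed preZGA sites of block 1 ended at position 983, while the ZGA sites ran on for 8 nt more. Position 983 held 67 cDNAs at ZGA and 4 at preZGA. Position 984 held 121 at ZGA and was not listed at preZGA. Segment 1c had 614 hnRNP A1 cDNAs at ZGA, led by positions 990 (228) and 991 (116), and no listed site at preZGA, so no ratio is given. IgG had 83 cDNAs on the same 8 positions at ZGA, 13.5% of the hnRNP A1 number (10.6 to 17.0).

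Block 2 had the same pair of main peaks at both stages, one of them the leading nucleotide. Its part 2a had 649 hnRNP A1 cDNAs at ZGA, against 727 at preZGA, a share ratio of 1.08 (0.973 to 1.21), an interval that covers 1. Position 1243 led it with 371 at ZGA and 441 at preZGA, and its neighbours 1242 and 1244 held 48 and 19 at ZGA and 75 and 18 at preZGA. No IgG site was listed in 2a at either stage, although 1243 was among the 5 strongest nucleotides of the region at both. Part 2b had 1980 cDNAs at ZGA and 1554 at preZGA, a share ratio of 1.55 (1.45 to 1.65). Within 2b, the leader 1291 had a share ratio of 1.94 (1.78 to 2.13). Position 1302, with 119 cDNAs at ZGA and 157 at preZGA, had 0.920 (0.719 to 1.17), an interval that covers 1.

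Block 3 was the broadest, and its first part was made up of many sites of moderate count. Segment 3a spread 2426 hnRNP A1 cDNAs over 127 sites at ZGA and 1852 over 121 sites at preZGA, a share ratio of 1.59 (1.50 to 1.69). No nucleotide of 3a exceeded 160 cDNAs at ZGA or 117 at preZGA, and both values lay on position 1743. The median site there held 11 cDNAs at ZGA and 10 at preZGA.

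Segment 3b did not have the higher share at ZGA that most of the other segments had. It held 1750 hnRNP A1 cDNAs over 63 sites at ZGA and 2236 over 64 sites at preZGA, a share ratio of 0.950 (0.892 to 1.01). Of its 63 shared nucleotides, 21 held more cDNAs at ZGA by raw number. This count is not scaled to the tables, of which that of ZGA was the smaller. Position 1933 held 70 cDNAs at ZGA and 170 at preZGA, position 1902 held 57 and 141, and position 1913 held 17 and 66. Position 1896 went the other way, with 147 at ZGA and 79 at preZGA. IgG had 146 cDNAs in 3b at ZGA and none listed at preZGA.

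The end of block 3 showed the largest count listed at 1 stage alone. Position 1950 held 49 hnRNP A1 cDNAs at ZGA, against 20 at preZGA. Position 1951 held 407 at ZGA and position 1952 held 83, and neither was listed at preZGA. Segment 3c had 499 cDNAs at ZGA in all. IgG at ZGA had its strongest nucleotide of the region on the same position 1951, with 100 cDNAs, and 30 on position 1952. Segment 3c thus had the highest IgG percentage of the 8 segments, 26.3% of the hnRNP A1 number (21.5 to 31.9).

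**Figure D3:**
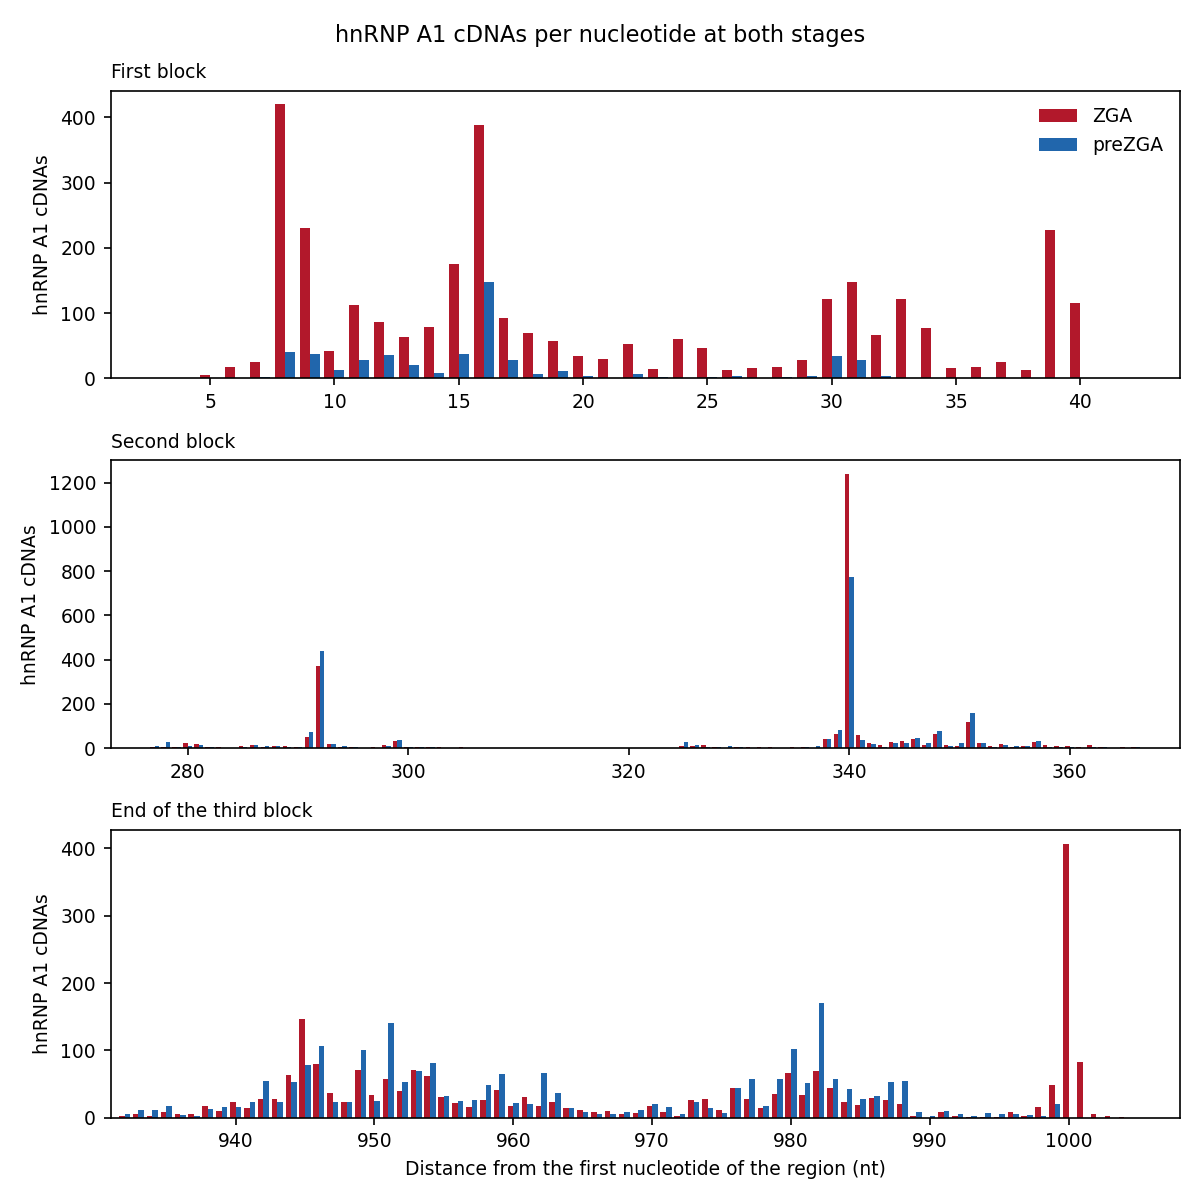
hnRNP A1 cDNAs per nucleotide (vertical axis) at ZGA and preZGA (paired bars) against distance from the first nucleotide of the region (horizontal axis, nt) in block 1, block 2 and the end of block 3. ZGA bars exceed preZGA bars throughout block 1, block 2 has the same 2 main peaks at both stages, and block 3 ends in a bar of 407 cDNAs at ZGA with none listed at preZGA.

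**Figure D4:**
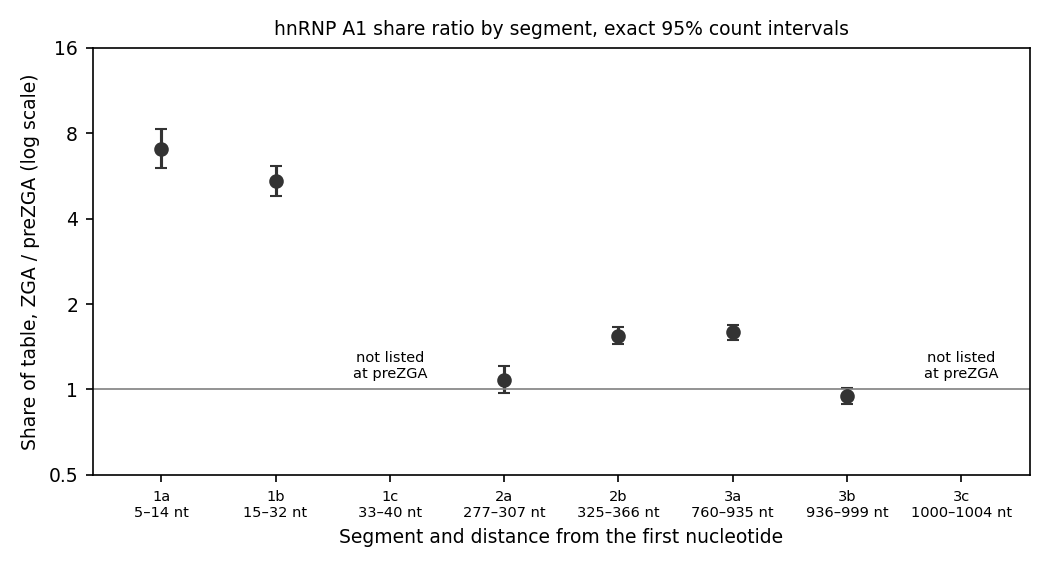
Ratio of the share of hnRNP A1 cDNAs in the table, ZGA over preZGA (vertical axis, log scale), for the 8 segments (horizontal axis, with distance from the first nucleotide); bars are exact 95% intervals of the counts. Segments 1a and 1b lie at 7.02 and 5.41, segments 2a to 3b between 0.950 and 1.59, and 1c and 3c have no preZGA site by definition.

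The short blocks 4 and 5 lie near the far end of the span, on the side of trnV. In block 4, position 1989 held 9 hnRNP A1 cDNAs at ZGA and the 6 that followed held 1 to 4 each. In block 5, positions 2041 and 2042 held 62 and 27 cDNAs at preZGA, and position 2040 held 1. No site was listed in block 4 at preZGA or in block 5 at ZGA, and IgG had none in either.

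Single nucleotides were also compared as shares of the region's own cDNAs, which sets aside its larger share at ZGA. Of the 172 compared, 17 had no listed preZGA site and so no ratio. Ordered by the lower limit of the interval, positions 1951, 990, 984, 991 and 1952 came first among them. The lowest were 2041 and 2042, without a listed ZGA site, and then 1229, with 5 cDNAs at ZGA and 28 at preZGA. Its ratio of shares of the region was 0.119 (0.0359 to 0.312). Position 1913 followed at 0.172 (0.0944 to 0.296) and position 1781, with 10 cDNAs at ZGA and 30 at preZGA, at 0.222 (0.0969 to 0.467).

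Most crosslinked nucleotides of the region were listed at both stages. The 262 shared nucleotides were 84.8% of the ZGA sites (80.3 to 88.6) and 93.6% of the preZGA sites (90.0 to 96.1), beside 36.5% and 25.4% over the whole hnRNP A1 tables. The tables at large consist mainly of sites of 1 cDNA and the region does not, and the part of this in the overlap was not tested. The 47 nucleotides listed at ZGA alone held 1611 cDNAs, 15.4% of the region. The 18 listed at preZGA alone held 192 cDNAs, 2.76% of the region. By mean, sites at ZGA alone held 34.3 cDNAs against 33.8 at shared ones, whereas sites at preZGA alone held 10.7 against 25.9. A few sites carried the first mean. Segments 1c and 3c, which hold no preZGA site by definition, had 8 and 5 of the 47 sites. They held 1113 of the 1611 cDNAs (69.1%), 407 of them on position 1951.

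Of the 17 nucleotides that had at least 20 cDNAs and no listed preZGA site, 5 lay between positions 984 and 991, 2 were 1951 and 1952, and 1 was 972. The other 9 lay in 3 places between 1800 and 1864. Position 1861 held 81 cDNAs at ZGA, with 24 on position 1860 and 20 on position 1862. Position 1822 held 73, and positions 1817, 1819 and 1821 held 31, 33 and 20. Position 1864 held 24, next to position 1865 with 55 at ZGA and 35 at preZGA. Position 1800 held 21 between 2 nucleotides that were listed at both stages.

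Among nucleotides listed at both stages, counts ran in parallel between the stages within each long block. Nucleotides listed at 1 stage alone are left out, such as 1951 with 407 cDNAs and 990 with 228 at ZGA. Over the 262 shared nucleotides Pearson's r of log2 cDNAs was 0.72 and Spearman's rho 0.74. It was 0.84 and 0.86 over 25 nucleotides in block 1, 0.84 and 0.72 over 65 in block 2, and 0.81 and 0.85 over 172 in block 3. These describe 1 pair of pooled tables. Neighbouring nucleotides share RNA fragments, sequence and local filter, and are not independent replicates.

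hnRNP A1 exceeded IgG in raw cDNAs at both stages, far more at preZGA. In the region hnRNP A1 had 16.9 times the IgG cDNAs at ZGA (15.6 to 18.4) and 211 times at preZGA (150 to 307). At ZGA the hnRNP A1 sum covers 4 samples and the IgG sum 3, whereas at preZGA each covers 3. Over the whole tables the fold was 23.7 at ZGA and 60.8 at preZGA, so the region lay below the table at ZGA and above it at preZGA. The rest of the mitochondrial plus strand also lay above the table at preZGA, at 151 (126 to 182). At ZGA its fold was 25.3 (23.4 to 27.3). As a share of its own table the region was smaller for hnRNP A1 than for IgG at ZGA, at 2.17% against 3.05% (2.81 to 3.29), a ratio of 0.714 (0.658 to 0.775). At preZGA it was larger, at 1.19% against 0.344% (0.237 to 0.482), a ratio of 3.47 (2.47 to 5.05). For the rest of the mitochondrial plus strand this ratio was 1.06 (0.987 to 1.15) at ZGA and 2.48 (2.07 to 3.00) at preZGA. Without the 10 kb window holding the most IgG cDNAs, the region's ratio was 0.461 at ZGA and 1.40 at preZGA. The region's share against that of IgG thus depended on this single window, at preZGA most. No interval was calculated for these values, so whether 1.40 lies above equal shares was not tested. The library depths behind the tables are unknown, so neither scale gives an enrichment per library.

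IgG sites fell on hnRNP A1 sites without exception in the region. All 92 IgG sites at ZGA and all 11 at preZGA lay on a nucleotide with an hnRNP A1 site of the same stage, beside 81.5% and 60.1% of all IgG sites in the tables. From the hnRNP A1 side this was 29.8% of the region's sites at ZGA (24.7 to 35.2) and 3.93% at preZGA (1.98 to 6.92), beside 1.51% and 0.315% over the whole tables. These percentages cannot exceed the number of IgG sites over that of hnRNP A1 sites. Over the whole tables these were 3709 beside 200258 at ZGA and 1508 beside 287588 at preZGA. The rest of the mitochondrial plus strand had 192 beside 676 at ZGA and 26 beside 631 at preZGA. Its overlap was not calculated, so whether the percentages are particular to the region was not tested. On average the hnRNP A1 sites that met an IgG site were stronger. Their mean was 63.2 cDNAs at ZGA against 21.4 at the others, and 109 against 21.5 at preZGA. The preZGA mean rests on 11 sites, from 4 cDNAs on position 1304 to 774 on position 1291. Together they held 17.2% of the region's hnRNP A1 cDNAs at preZGA, and position 1291 alone held 11.1%. That single nucleotide thus made up most of the preZGA mean.

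The ratio of IgG to hnRNP A1 cDNAs at ZGA differed along the region. IgG came to 8.38% of the hnRNP A1 cDNAs in block 1, 2.97% in block 2 and 5.93% in block 3. Within block 2 all 78 IgG cDNAs lay in 2b, at 3.94% (3.10 to 4.94) of its hnRNP A1 cDNAs, and 2a had no listed IgG site beside 649 hnRNP A1 cDNAs. The 5 strongest IgG nucleotides at ZGA were 1951 (100 cDNAs), 1291 (62), 982 (37), 1952 (30) and 967 (24). By segment, 1b held 179 IgG cDNAs at ZGA, 3b 146, 3c 131, 1c 83 and 2b 78. Position 959, second in hnRNP A1 at ZGA with 420 cDNAs, had no IgG site, whereas position 1951, next with 407, had 100.

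At preZGA more than 50% of the IgG signal lay on a single nucleotide. Position 1291 held 19 of the 33 IgG cDNAs, or 57.6%, and 12 of the other 14 lay in the same segment 2b. Position 1290 held 3, positions 981 and 1304 held 2 each, and 7 positions held 1 each. Without position 1291 the fold of hnRNP A1 over IgG at preZGA was 442 in place of 211. Position 1291 was thus the strongest hnRNP A1 nucleotide at both stages, the strongest IgG nucleotide at preZGA and the second at ZGA. Its hnRNP A1 to IgG counts were 1240 to 62 at ZGA and 774 to 19 at preZGA. Over the 92 nucleotides listed for both pull-downs at ZGA, Pearson's r of log2 cDNAs was 0.74 and Spearman's rho 0.69. By block they were 0.92 and 0.94 over 25 nucleotides in block 1, 0.67 and 0.38 over 13 in block 2, and 0.71 and 0.69 over 54 in block 3.

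**Figure D5:**
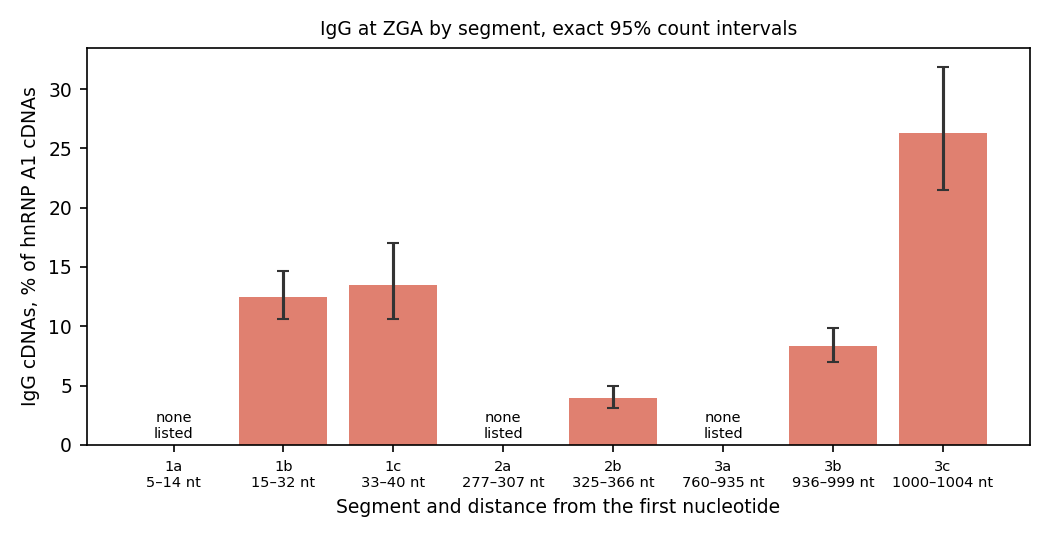
IgG cDNAs at ZGA as a percentage of hnRNP A1 cDNAs at ZGA (vertical axis) in the 8 segments (horizontal axis, with distance from the first nucleotide); bars show the value and whiskers exact 95% intervals of the counts. Segment 3c is highest at 26.3% and 2a has no listed IgG site. By definition 1a and 3a are empty, and 1b and 3b start on an IgG site.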

How the data were processed

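Per the labels and file headers, the authors summed the replicates of each group and deposited cDNA counts of the crosslinked nucleotides that passed a false discovery rate of 0.01 with 100 permutations, a neighbourhood of 15 nt and regions treated separately, on Zv9 (danRer7) with Ensembl release 72. The submitters' processing notes list CASAVA 1.4. Aligner and duplicate treatment are not given in the sources used here. The unique-mapping counts are whole numbers and multi-mapping counts are divided over genomic hits; the sign of the deposited count gives the strand. The 26 files hold 8 distinct tables, since all copies under a group's replicates were identical. For hnRNP A1 at ZGA the header names 4 libraries and the description 3.

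Sites were compared by nucleotide. Shares have Clopper-Pearson intervals and ratios exact conditional binomial intervals, at 95%. Ratio code was tested on simulated data. Nucleotides named are the 10 strongest of each hnRNP A1 table, the 5 strongest of each IgG table and the 5 highest and 5 lowest stage ratios (those without a ratio ordered by interval limit); nucleotides at the edges and inside of segments, and those listed at 1 stage alone, were chosen after their values were seen. The region and the measures were chosen with earlier results of these data known. Calculations used scipy 1.17.1, with pandas 2.3.3 and numpy 2.4.6, under Python 3.11.15, and figures matplotlib 3.10.9. Alternatives covered the least cDNAs per site, sites in place of cDNAs, other denominators, IgG exclusions, multi-mapping counts and matching distance.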

Additional observations from a re-analysis of the deposited data

Results flagged for a closer look

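The multi-mapping tables, which the comparisons above leave out, listed hnRNP A1 cDNAs in the region and none for IgG at either stage. They came to 4.53 cDNAs over 4 nucleotides between positions 1883 and 1898 at ZGA and to 0.5 on position 1889 at preZGA. The strongest was position 1898 with 2 cDNAs at ZGA. This is 0.0434% of the uniquely mapped hnRNP A1 cDNAs of the region at ZGA and 0.00718% at preZGA.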

How the results depend on the processing

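Of 43 alternatives to 8 results, 18 stayed within the interval of the counts (or within 1.5-fold for a number of nucleotides), 23 moved further and 2 changed direction. The 2 were the fold of hnRNP A1 over IgG at ZGA taken as shares of the tables, 0.714 in place of 16.9, and 0.461 without the 10 kb window holding the most IgG cDNAs. At preZGA these settings gave 3.47 and 1.40 in place of 211. With sites in place of cDNAs the fold was 3.36 at ZGA and 25.5 at preZGA, and with at least 5 cDNAs per site 21.4 and 359. Without position 1291 it was 442 at preZGA.

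The log2 share ratio of hnRNP A1, ZGA over preZGA, was 0.86 and stayed above 0 under all 9 alternatives run. It was 0.76 and 0.44 with at least 2 and 5 cDNAs per site, 0.66 by sites, 0.39 as a share of the mitochondrial plus strand, 0.77 with multi mapping added, 0.79 when a margin of 15 nt around every IgG site was removed (3059 cDNAs left in the region at ZGA and 2608 at preZGA), and 0.47 without block 1. That of IgG was 3.15, and 1.77 by sites, 1.09 as a share of the plus strand and 2.48 without the strongest IgG window.

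The percentage of ZGA sites also listed at preZGA, 84.8%, was 90.9% within 1 nt and 94.8% within 3 nt. By share of the region, which is set by the region's own total, 75 of 172 nucleotides lay at least 2-fold apart, 117 of 254 with at least 10 cDNAs and 43 of 94 with at least 50. The 75 include 17 nucleotides without a listed preZGA site and 2 without a listed ZGA site, taken as having no cDNAs there. Unlisted nucleotides were treated the same way at the other cutoffs. No matching share over all nucleotides of the tables was calculated on this scale, so whether these counts are unusual was not tested. The 10 strongest windows of 5 nt held 55.1% of cDNAs at ZGA and 52.8% at preZGA. No paired analysis was possible because each group was deposited as 1 pooled table; no replicate could be left out for the same reason. The tables list significant sites only, so a nucleotide not listed at 1 stage has no known count there, and IgG at preZGA rests on 33 cDNAs.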
